A study of Mus musculus with 9 samples.

Results

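The 41 genes described here encode proteins of the lysosome other than cathepsins: soluble hydrolases, the proteins that help them, lysosomal membrane proteins and sorting receptors. They were chosen by name, without a cut on their values but with earlier results of these data known. All 41 have a row among the 24062 gene symbols of the count table. Their RNA was sequenced in 9 libraries from MEFs (mouse embryonic fibroblasts, which are connective tissue cells cultured from the embryo) of strain C57BL/6, with 3 libraries in each of 3 groups. The p21 group was infected with a lentivirus that overexpresses p21 (gene Cdkn1a), the p16 group with one that overexpresses p16 (gene Cdkn2a), and the control group with the empty vector. Day 4 was the time of RNA isolation for each group, and non-senescent is the label that all 9 samples carry. The labels do not say whether the replicates came from separate embryos or cultures, so the p-values measure the spread between these libraries. Some of that spread may be technical, and how much was not tested.

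Lysosomes are acidic organelles in which proteins, glycans, glycolipids and other lipids are broken down. Most soluble lysosomal enzymes are tagged with mannose 6-phosphate in the Golgi and carried onward by mannose 6-phosphate receptors, and many lysosomal genes are targets of the transcription factors TFEB, TFE3 and MITF. Senescent cells often hold an enlarged lysosomal compartment. The usual stain for them, senescence-associated beta-galactosidase, reads the activity of the lysosomal enzyme encoded by Glb1 at a pH above its optimum.

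Library totals ran from 44455730 to 63152239 counts, and 14223 genes were tested, all 41 lysosomal genes among them. The delivered genes went with the labels: Cdkn1a stood at 1429 to 1773 CPM (the count divided by the TMM-scaled size of its library) in the p21 libraries, against 349.8 to 374.5 CPM in the empty vector libraries. Cdkn2a stood at 1576 to 1927 CPM in the p16 libraries, against 34.7 to 42.2 CPM in the empty vector libraries. The replicate 3 libraries of all groups held the X-inactivation RNA Xist at 181.1 to 250.9 CPM. It stood at 6.96 CPM in p21 replicate 1 and at 0.0902 to 0.340 CPM in the others. Within every group, replicate 3 thus differed in Xist from the other replicates, and the reason was not tested. Calls among the 41 genes that change without the 3 libraries of replicate 3 are therefore named below. The 8 fibroblast markers summed to 27480 to 33720 CPM, mostly from Col1a1, Col1a2 and Vim, while Dcn, which encodes decorin, stood at only 2.26 to 4.12 CPM. With p21, Col1a1, Thy1 and Vim rose, and Col3a1 and Pdgfra fell, where 19.8% of all genes tested rose and 20.1% fell. Pdgfra stood at 13.8, 13.9 and 22.6 CPM with p21, 22.6, 20.0 and 30.6 CPM with p16 and 33.55, 30.7 and 36.1 CPM with the empty vector (log2 fold change with p21 -0.99, edgeR adjusted p = 0.000916). With p16, 0 of the 8 passed in the edgeR test, where 5.8% of all genes tested rose and 5.56% fell. With the replicate number as a block 4 rose and 1 fell, and these shares do not apply to that fit. The 4 epithelial markers summed to at most 0.363 CPM and the 4 endothelial markers to at most 4.65 CPM.

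Seen as a whole, the lysosomal genes were higher with p21. In the quasi-likelihood test of edgeR (called at adjusted p below 0.05), 32 of 41 rose and 0 fell, where 19.8% of all genes tested rose and 20.1% fell. In 35 of 41, all p21 libraries stood above all empty vector libraries, which held for 24.2% of all genes tested. The median log2 fold change was 0.28, against 0.001 over all genes tested, and single genes ran from -0.13 to 0.66. With p16, 17 of 41 rose and 0 fell, where 5.8% of all genes tested rose and 5.56% fell, with a median of 0.16 against 0.002 over all genes. The p16 count was 10 without p16 replicate 2 and 26 with the replicate number as a block. Set directly against p16, p21 was higher for 16 of 41 genes and lower for 0, where 6.15% of all genes tested were higher and 6.91% lower, with a median of 0.13 against -0.002. With the replicate number as a block, 36 rose with p21 and 20 were higher in p21 than in p16. With scaling to library totals only, 28 rose with p21, 13 with p16 and 15 were higher in p21 than in p16. Here and below, the shares of all genes tested belong to the fit of all 9 libraries with TMM scaling and without the block. Counts from other settings cannot be set against these shares. The comparisons with the empty vector share the control libraries, so the effects of p21 and p16 are not independent of each other. In bulk RNA, more of a transcript per cell and more cells that carry it cannot be told apart.

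**Figure D1:**
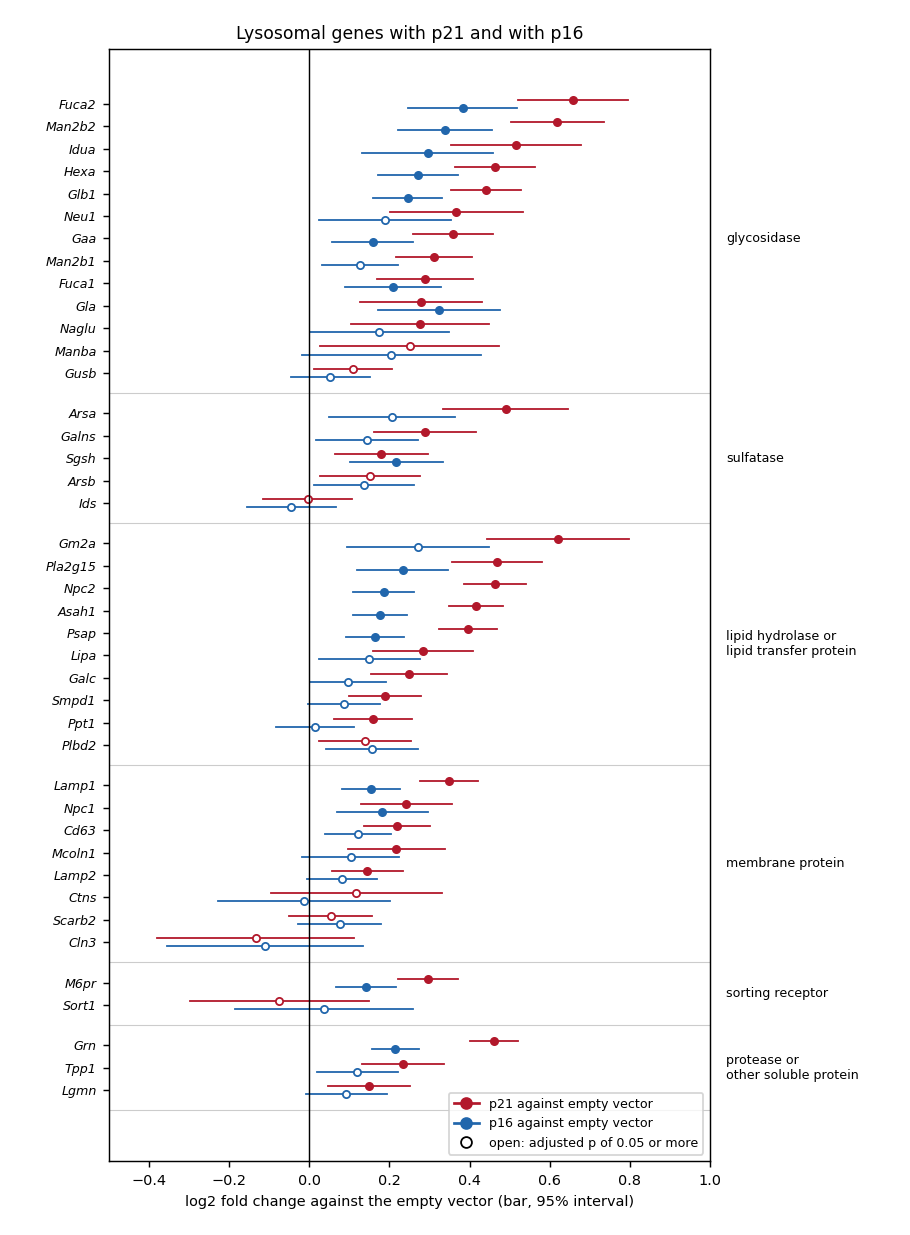
Log2 fold change of each of the 41 genes against the empty vector (x axis) with its 95% interval, for p21 (red) and p16 (blue), by class; open circles did not pass the edgeR test. Filled red circles are 32 and filled blue circles 17, and all of them lie to the right of 0.

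Among the glycosidases, the enzymes that cut sugars off glycans and glycolipids, 11 of 13 rose with p21 and the median was 0.36. The corresponding figures were 9 of 10 and 0.34 for lipid hydrolases and lipid transfer proteins, and 5 of 8 and 0.18 for membrane proteins. Of the 5 sulfatases 3 rose (median 0.18), of the 2 sorting receptors 1 rose, and all 3 proteases and other soluble proteins rose (median 0.23). With p16 the counts were 8 of 13 glycosidases (median 0.21), 4 of 10 lipid genes (0.16) and 2 of 8 membrane proteins (0.092). In p21 against p16 they were 6 of 13 (0.186), 6 of 10 (0.193) and 1 of 8 (0.081). The differences between classes were not tested, and their counts rest on few genes. Leaving out 1 library moved the p16 counts to 5 to 8 glycosidases (5 without control replicate 1, p16 replicate 1 or p16 replicate 2), 3 to 7 lipid genes (7 without p16 replicate 1) and 0 to 3 membrane proteins (0 without p16 replicate 2, and 1 without p16 replicates 1 or 3, p21 replicate 1 or any control). It moved the glycosidase count of p21 against p16 to 3 (without p21 replicate 1 or p16 replicate 3) and the membrane protein count to 3 (without p21 replicate 2).

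Levels differ widely between the genes, so they are compared per exon length, as mean RPKM (the CPM divided by the exon length in kilobases). In the empty vector libraries Psap had 286 RPKM, Lamp1 251 RPKM and Cd63 143 RPKM. These were the 3 highest, and Psap gave 17.55%, Lamp1 15.02% and Cd63 11.74% of the summed CPM of the 41 genes. Glb1, with 24.3 RPKM in the p21, 21.25 RPKM in the p16 and 17.9 RPKM in the empty vector libraries, held rank 13 of 41 in the empty vector. Cln3 (1.49 RPKM) and Galc (1.56 RPKM) were the lowest there. The exon length counts every annotated exon of a gene, so a gene with long rare isoforms reads low on this scale.

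**Figure D2:**
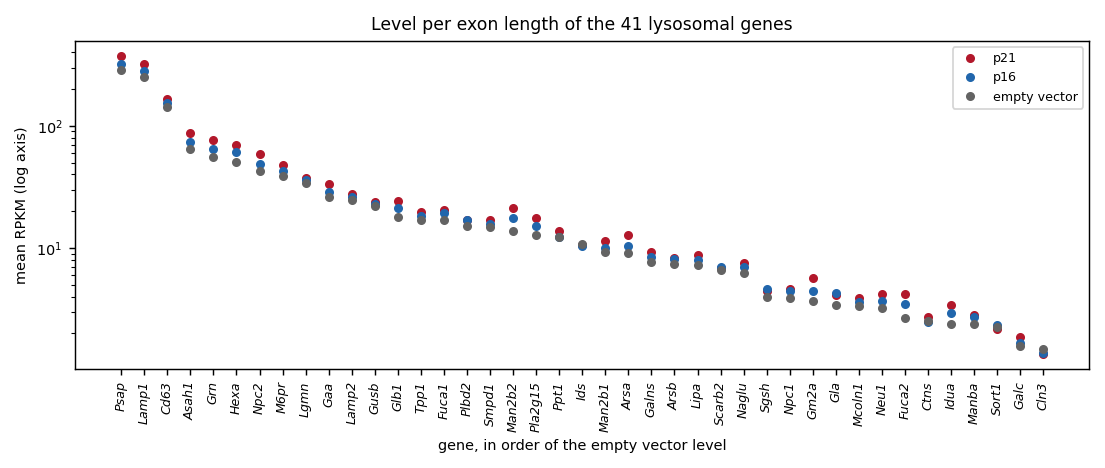
Mean RPKM (log axis) of the 41 genes in p21 (red), p16 (blue) and empty vector libraries (grey), each the mean of 3 libraries, in order of the empty vector level. The level runs from 286 RPKM for Psap to 1.49 RPKM for Cln3 in the empty vector libraries.

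Glb1 encodes the lysosomal beta-galactosidase, which removes terminal galactose from GM1 ganglioside and keratan sulfate. It stood at 73.9, 72.0 and 73.7 CPM in the p21 libraries, 61.85, 65.6 and 64.3 CPM in the p16 libraries and 53.6, 53.7 and 54.5 CPM in the empty vector libraries. The 3 groups did not overlap, with p21 highest and the empty vector lowest. The mean was 73.2 ± 1.05 CPM with p21, 63.9 ± 1.92 CPM with p16 and 53.9 ± 0.497 CPM with the empty vector (SD, n = 3 each). Against the empty vector p21 was 1.36-fold higher (log2 fold change 0.44 ± 0.0399, SE, edgeR adjusted p = 4.08e-06) and p16 1.185-fold higher (0.25 ± 0.0399, edgeR adjusted p = 0.00268). The difference of p21 from p16 was also called (0.20 ± 0.0397, edgeR adjusted p = 0.00680). All 3 calls held whichever library was left out. Glb1 lies on chromosome 9, 114401076 to 114474898 (GRCm38, the build mm10), and 5.49% of its exon bases are shared with Tmppe, annotated on the same strand, whose reads the counting could have split. Transcript levels say nothing of enzyme activity or of staining, which were not measured in these files.

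The start of Glb1 is shown because it carries the letters TCACGTG, an E-box of the kind that TFEB and its relatives are known to bind. The sequence is RefSeq's (GRCm38.p6), 250 bases before to 50 bases after the annotated start, 5′ to 3′ on the gene's strand, with these letters in capitals, and their core CACGTG begins 48 bases before the start.
Glb1, chr9:114400828-114401127, plus strand: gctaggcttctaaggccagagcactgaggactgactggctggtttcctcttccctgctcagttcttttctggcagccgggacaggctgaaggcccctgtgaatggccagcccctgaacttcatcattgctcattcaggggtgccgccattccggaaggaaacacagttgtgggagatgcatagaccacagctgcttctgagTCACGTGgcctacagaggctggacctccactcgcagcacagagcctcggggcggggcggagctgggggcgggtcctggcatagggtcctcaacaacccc

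Man2b2, Fuca2 and Hexa also rose in both comparisons with the empty vector (here and below, ± after a log2 fold change is its SE). Man2b2, an alpha-mannosidase, stood at 77.0, 77.0 and 70.6 CPM with p21, 59.3, 62.7 and 62.7 CPM with p16 and 47.6, 52.0 and 46.5 CPM with the empty vector. Its log2 fold change was 0.62 ± 0.0539 with p21 (edgeR adjusted p = 2.93e-06) and 0.34 ± 0.0539 with p16. Fuca2, which encodes an alpha-fucosidase that is also secreted, had the largest change of the 41 genes with p21, as well as with p16. It stood at 27.5, 24.6 and 25.7 CPM with p21, 21.6, 22.8 and 19.9 CPM with p16 and 15.9, 17.0 and 16.4 CPM with the empty vector. The log2 fold changes were 0.66 ± 0.0628 (edgeR adjusted p = 6.24e-06) and 0.38 ± 0.0630 (edgeR adjusted p = 0.00290). Hexa, the alpha subunit of beta-hexosaminidase, stood at 142.5, 137 and 136 CPM with p21, 121, 126 and 116.5 CPM with p16 and 94.9, 106 and 101 CPM with the empty vector (log2 fold changes 0.46 ± 0.0459 and 0.27 ± 0.0459). In all 3 genes the groups kept the order p21, p16, empty vector with no overlap, and p21 also passed against p16. The calls of Fuca2 and Hexa in p21 against p16 were lost when 1 library was left out (Fuca2 without p21 replicate 1 or p16 replicate 3, highest edgeR adjusted p = 0.0653, and at an adjusted p of 0.05 without the replicate 3 libraries; Hexa without p21 replicate 1 or p16 replicates 1 or 3, highest 0.0746). Hexa shares 12.78% of its exon bases with Tmem202 on the opposite strand, and the library kit keeps no strand.

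Gaa, the acid alpha-glucosidase that degrades lysosomal glycogen, changed by 0.36 ± 0.0462 on the log2 scale with p21 and by 0.16 ± 0.0461 with p16. Idua, the alpha-iduronidase of heparan and dermatan sulfate breakdown, changed by 0.52 ± 0.0747 and 0.30 ± 0.0749. Man2b1, the main lysosomal alpha-mannosidase, stood at 88.4, 96.9 and 89.1 CPM with p21, 81.3, 81.1 and 78.7 CPM with p16 and 72.95, 75.1 and 73.0 CPM with the empty vector. It rose with p21 (0.31 ± 0.0435) and was higher than with p16 (0.19 ± 0.0434), whereas p16 against the empty vector gave 0.13 ± 0.0435 (edgeR adjusted p = 0.0851, 0.0212 with the replicate block and 0.0450 without p21 replicate 2). Its call against p16 was lost without p16 replicate 3 (edgeR adjusted p = 0.0509). The fucosidase Fuca1 rose in both comparisons with the empty vector (0.29 ± 0.0556 with p21, 0.21 ± 0.0556 with p16). Neu1, a sialidase, and Naglu, an N-acetylglucosaminidase of heparan sulfate, passed with p21 (0.37 ± 0.0760 and 0.28 ± 0.0798) and did not pass with p16 (0.19 and 0.17). Without the replicate 3 libraries Neu1 passed in p21 against p16 (edgeR adjusted p = 0.0389). The call of Naglu was lost without control replicate 1 (edgeR adjusted p = 0.0615). Of the p16 calls, that of Gaa was lost without any 1 of 6 libraries (highest edgeR adjusted p = 0.175), that of Idua without any 1 of 5 (highest 0.105) and that of Fuca1 without any 1 of 4 (highest 0.141). In p21 against p16 Gaa passed (0.20 ± 0.0460), a call lost without p21 replicate 1 or p16 replicates 1 or 2 (highest edgeR adjusted p = 0.0640), and Idua passed with the replicate block (0.0308).

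Gla, the X-linked alpha-galactosidase A, was the 1 glycosidase with a point estimate higher with p16 than with p21. It stood at 13.9, 12.6 and 14 CPM with p21, 14.6, 13.8 and 13.4 CPM with p16 and 11.7, 11.0 and 10.6 CPM with the empty vector. Both groups lay above the controls (0.28 ± 0.0704 with p21, 0.32 ± 0.0701 with p16), and p21 against p16 gave -0.044 ± 0.0695 (95% interval -0.20 to 0.11). Its p21 call was lost without the replicate 3 libraries (edgeR adjusted p = 0.0608), and its p16 call without p16 replicate 1 (0.0531).

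Manba and Gusb were the glycosidases that did not pass with p21. Manba, the beta-mannosidase, stood at 18.95, 17.5 and 22.7 CPM with p21, 18.4, 18.1 and 20.8 CPM with p16 and 14.7, 16.6 and 18.5 CPM with the empty vector, and the groups overlapped. Its log2 fold change with p21 was 0.25 (95% interval 0.027 to 0.47, edgeR adjusted p = 0.0708). Gusb, the beta-glucuronidase, stood at 107, 107 and 109 CPM with p21, 103, 108 and 98.5 CPM with p16 and 101, 103 and 94.2 CPM with the empty vector. The p21 libraries lay above the controls by a small margin, a log2 fold change of 0.11 (95% interval 0.010 to 0.21, edgeR adjusted p = 0.0743). With the replicate number as a block both passed with p21 (edgeR adjusted p = 0.00266 for Manba and 0.0202 for Gusb), and Manba passed with p16 as well (0.0234). Manba also passed with p21 without control replicate 3 (0.0297), p21 replicate 2 (0.0312) or the replicate 3 libraries (0.0466).

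**Figure D3:**
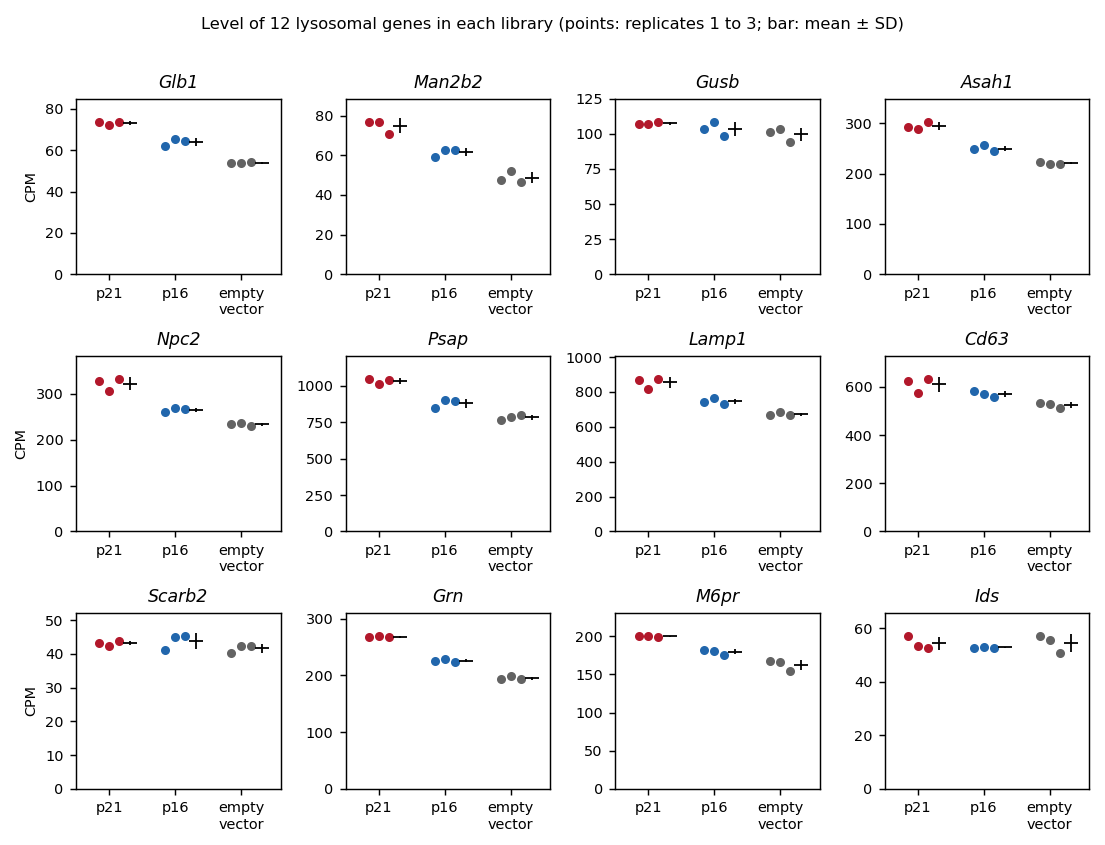
CPM of 12 genes in each library (points, replicates 1 to 3 from left to right) with the mean ± SD of each group (bar). Glb1, Man2b2, Asah1, Npc2, Psap, Lamp1, Grn and M6pr step down from p21 over p16 to the empty vector with no overlap, while Ids and Scarb2 overlap between all groups.

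Lysosomal sulfatases remove sulfate groups from glycosaminoglycans and sulfolipids. Arsa, the arylsulfatase of sulfatide, stood at 45.35, 45.9 and 49.0 CPM with p21, 33.7, 39.2 and 42.3 CPM with p16 and 31.7, 33.4 and 34.8 CPM with the empty vector. All p21 libraries lay above all others. Arsa rose with p21 (0.49 ± 0.0719, edgeR adjusted p = 0.000187) and was higher than with p16 (0.28 ± 0.0715), while p16 against the empty vector gave 0.21 ± 0.0721 (edgeR adjusted p = 0.0879, and 0.00447 with the replicate block). The call against p16 was lost without p21 replicate 3 or p16 replicates 1 or 2 (highest edgeR adjusted p = 0.0664), and the p16 comparison passed without p16 replicate 1 (0.0127).

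Galns, which acts on keratan sulfate and chondroitin sulfate, stood at 24.3, 24.5 and 25.3 CPM with p21, 20.8, 24.05 and 22.1 CPM with p16 and 19.85, 21.1 and 19.7 CPM with the empty vector, and rose with p21 (0.29 ± 0.0583). Sgsh, the sulfamidase of heparan sulfate, stood at 19.15, 20.3 and 19.85 CPM with p21, 19.9, 19.5 and 21.4 CPM with p16 and 17.5, 17.3 and 17.4 CPM with the empty vector. Both groups lay above the controls (0.18 ± 0.0535 and 0.22 ± 0.0533), with p21 lost without control replicate 2 or p21 replicate 2 (edgeR adjusted p = 0.0535 and 0.0524) and without the replicate 3 libraries (0.0657). The p16 call of Sgsh was lost without any 1 control library or p16 replicate 3 (highest 0.0890) and without the replicate 3 libraries (0.129). Arsb, the arylsulfatase of dermatan sulfate, stood at 49.9, 51.2 and 48.5 CPM with p21, 46.7, 49.6 and 51.8 CPM with p16 and 41.6, 44.9 and 48.2 CPM with the empty vector. Its difference with p21 of 0.15 (95% interval 0.027 to 0.28) did not pass (edgeR adjusted p = 0.0522), but did with the replicate block (0.00903), without control replicate 3 (0.0208) or p16 replicate 1 (0.0474), and without the replicate 3 libraries (0.00557). With p16 it passed with the block as well (0.0383).

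Ids, the X-linked iduronate sulfatase, overlapped in all groups, at 57.1, 53.35 and 52.5 CPM with p21, 52.7, 53.0 and 52.7 CPM with p16 and 57.0, 55.8 and 50.7 CPM with the empty vector. The 95% interval of its log2 fold change with p21 was -0.12 to 0.11, and with p16 -0.16 to 0.066. Of the 4 genes with over 10% of exon bases shared with an opposite-strand gene, 3 are sulfatases: Arsb at 39.94%, Sgsh at 21.64% and Arsa at 18.75%. Their counts may hold reads of the overlapping genes.

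Of the lipid enzymes and their helpers, Asah1, Npc2 and Psap had the smallest adjusted p with p21. Asah1, the acid ceramidase, stood at 292, 289 and 303 CPM with p21, 248, 256 and 245 CPM with p16 and 223, 219 and 219.8 CPM with the empty vector. The log2 fold changes were 0.42 ± 0.0310 with p21 (edgeR adjusted p = 8.51e-07), 0.18 ± 0.0309 with p16 (0.00392) and 0.24 ± 0.0309 in p21 against p16 (0.000350). Npc2, a soluble protein that takes cholesterol out of the lysosome together with NPC1, stood at 327, 305 and 332 CPM with p21, 260.5, 269 and 265.5 CPM with p16 and 233, 237 and 229 CPM with the empty vector. It changed by 0.46 ± 0.0353 with p21 and 0.19 ± 0.0352 with p16. Psap, the precursor of the saposins that present glycolipids to hydrolases, stood at 1048, 1010 and 1041 CPM with p21, 845, 899 and 892 CPM with p16 and 767.5, 784 and 802 CPM with the empty vector. It changed by 0.40 ± 0.0333 with p21 and 0.16 ± 0.0333 with p16. In all 3 genes the groups were ordered p21, p16, empty vector with no overlap, and the calls in all 3 comparisons held whichever library was left out.

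Gm2a, the activator that hands GM2 ganglioside to beta-hexosaminidase, had the largest change of the lipid genes with p21. It stood at 22.45, 24.9 and 22.7 CPM with p21, 16.8, 18.8 and 19.3 CPM with p16 and 17.0, 14.15 and 14.3 CPM with the empty vector. All p21 libraries were above the others, whereas p16 and the controls overlapped. The log2 fold change was 0.62 ± 0.0812 with p21 (edgeR adjusted p = 7.74e-05) and 0.35 ± 0.0803 against p16 (0.0137, and 0.0643 without p16 replicate 1). With p16 it was 0.27 ± 0.0816 (edgeR adjusted p = 0.0510), which passed with the replicate block (0.0117) and without control replicate 1 (0.0205) or p16 replicate 1 (0.0451).

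The phospholipase Pla2g15 rose in both comparisons with the empty vector (0.47 ± 0.0519 and 0.23 ± 0.0519) and in p21 against p16 (0.23 ± 0.0516). Its p16 call was lost without control replicate 3 or p16 replicates 2 or 3 (highest edgeR adjusted p = 0.0612). Galc, the galactosylceramidase of myelin lipids, stood at 28.0, 26.8 and 27.9 CPM with p21, 24.85, 25.4 and 24.2 CPM with p16 and 22.6, 23.6 and 23.4 CPM with the empty vector. The 3 groups did not overlap, and Galc rose with p21 (0.25 ± 0.0441). Its call in p21 against p16 (0.15 ± 0.0440, edgeR adjusted p = 0.0396) was lost without any 1 library but p21 replicate 2 (highest edgeR adjusted p = 0.135) and without the replicate 3 libraries (0.211). For Galc, p16 against the empty vector did not pass (log2 fold change 0.10, edgeR adjusted p = 0.188).

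Lipa, the acid lipase of cholesteryl esters, and Smpd1, the acid sphingomyelinase, passed with p21 (0.28 ± 0.0577 and 0.19 ± 0.0415) and not with p16 (0.15 and 0.086), although Lipa passed there with the replicate block (edgeR adjusted p = 0.0366) and without p16 replicate 1 (0.0469). Without the replicate 3 libraries Lipa passed in p21 against p16 (0.0498). Ppt1, which removes palmitate from proteins, changed by 0.16 ± 0.0447 with p21, a call lost without control replicate 3 or p21 replicate 3 (edgeR adjusted p = 0.0528 and 0.0598) and without the replicate 3 libraries (0.0928). In p21 against p16 it passed with the replicate block (0.0174). With p16 its log2 fold change was 0.015 (95% interval -0.082 to 0.11). Plbd2, a phospholipase B-like protein, stood at 109, 115 and 110.0 CPM with p21, 105, 112 and 120.5 CPM with p16 and 95.3, 105 and 103 CPM with the empty vector. All libraries of both groups lay above the controls, but neither difference passed (0.14 ± 0.0530, edgeR adjusted p = 0.0529 with p21, and 0.16 ± 0.0529, 0.0795 with p16). With the replicate block both did (edgeR adjusted p = 0.00438 with p21 and 0.00560 with p16). The p21 difference also passed without p16 replicate 3 (0.0295), p16 replicate 1 (0.0373) or the replicate 3 libraries (0.0233), and the p16 difference without p16 replicate 1 (0.0417).

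Among the membrane proteins Lamp1, a heavily glycosylated protein of the lysosomal membrane, had the largest log2 fold change with p21. It stood at 869, 819 and 876 CPM with p21, 744, 763 and 733 CPM with p16 and 666, 683 and 665.5 CPM with the empty vector, with no overlap. The log2 fold changes were 0.35 ± 0.0330 with p21 (edgeR adjusted p = 5.99e-06), 0.15 ± 0.0330 with p16 (0.0118) and 0.19 ± 0.0330 in p21 against p16 (0.00230). The p16 call was lost without p16 replicate 2 (edgeR adjusted p = 0.0625). Lamp1 lies on chromosome 8, 13159161 to 13175338. Its start is shown because it holds the E-box core CACGTG 4 times, more often than that of any other of the 10 lysosomal genes that hold it. Each copy stands within TCACGTG or its reverse complement CACGTGA, in capitals, and the window is cut as for Glb1.
Lamp1, chr8:13158911-13159210, plus strand: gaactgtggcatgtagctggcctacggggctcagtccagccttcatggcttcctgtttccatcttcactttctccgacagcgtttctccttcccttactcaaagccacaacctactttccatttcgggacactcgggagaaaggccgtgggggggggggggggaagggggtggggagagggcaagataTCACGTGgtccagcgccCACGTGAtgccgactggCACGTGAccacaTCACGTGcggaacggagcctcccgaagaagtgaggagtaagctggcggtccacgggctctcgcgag

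Lamp2, the X-linked relative of Lamp1, stood at 269, 243 and 274 CPM with p21, 252, 251 and 249 CPM with p16 and 238, 238 and 235 CPM with the empty vector. Its change of 0.14 ± 0.0406 with p21 was lost without p21 replicate 1 (edgeR adjusted p = 0.0637) and without the replicate 3 libraries (0.0826). Cd63, a tetraspanin of lysosomes and exosomes, stood at 623, 577 and 634 CPM with p21, 584, 571 and 557 CPM with p16 and 535, 527 and 512 CPM with the empty vector, and rose with p21 (0.22 ± 0.0380). With p16 it gave 0.12 ± 0.0380 (edgeR adjusted p = 0.0604), which passed with the replicate block (0.00887) and without p21 replicates 2 or 3 (0.0242 and 0.0424), libraries that enter through the shared spread. In p21 against p16 Cd63 passed with the replicate block (0.0298) and without p21 replicate 2 (0.0223).

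Npc1, the membrane partner of Npc2, stood at 52.8, 54.6 and 48.5 CPM with p21, 49.3, 49.6 and 50.6 CPM with p16 and 44.7, 41.45 and 45.6 CPM with the empty vector. Both groups lay above the controls (0.24 ± 0.0525 and 0.18 ± 0.0525), although the p16 call was lost without any 1 of 7 libraries (highest edgeR adjusted p = 0.167). Mcoln1, the calcium channel TRPML1, rose with p21 (0.22 ± 0.0557) and did not pass with p16 (0.10).

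The 3 other membrane proteins overlapped between the groups and did not pass in any comparison. Scarb2, the membrane protein LIMP2, stood at 43.35, 42.5 and 43.7 CPM with p21, 41.1, 45.2 and 45.4 CPM with p16 and 40.2, 42.3 and 42.5 CPM with the empty vector (95% interval with p21 -0.051 to 0.16). Ctns, the cystine exporter, stood at 8.875, 9.98 and 8.81 CPM with p21, 7.63, 8.40 and 9.23 CPM with p16 and 7.60, 8.92 and 8.97 CPM with the empty vector (95% interval -0.10 to 0.33). Cln3, a membrane protein named for a neuronal storage disease, stood at 7.29, 8.915 and 7.35 CPM with p21, 8.77, 7.95 and 7.15 CPM with p16 and 9.53, 8.52 and 7.71 CPM with the empty vector (95% interval -0.38 to 0.11). All 3 intervals end below the estimate for Lamp1, and those of Scarb2 and Ctns include the estimate for Lamp2.

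Of the sorting receptors, M6pr, the cation-dependent mannose 6-phosphate receptor, stood at 201, 200.1 and 199 CPM with p21, 182, 181 and 176 CPM with p16 and 167, 166 and 155 CPM with the empty vector. The groups did not overlap, and all 3 comparisons passed (0.30 ± 0.0345 with p21, edgeR adjusted p = 3.27e-05, 0.14 ± 0.0345 with p16 and 0.15 ± 0.0344 in p21 against p16). The p16 call was lost without control replicates 2 or 3 or p16 replicates 1 or 2 (highest edgeR adjusted p = 0.0941) and without the replicate 3 libraries (0.0508). Sort1, which encodes sortilin, stood at 18.9, 15.1 and 14.8 CPM with p21, 17.4, 18.6 and 16.8 CPM with p16 and 19.5, 15.6 and 16.4 CPM with the empty vector, with overlap throughout (95% interval with p21 -0.30 to 0.15).

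Grn, the precursor of the granulins, had the smallest adjusted p of the 41 genes in all 3 comparisons. It stood at 268, 269.7 and 267 CPM with p21, 226, 228 and 224 CPM with p16 and 194, 198 and 193 CPM with the empty vector. The libraries of each group lay close together and the groups far apart. The log2 fold changes were 0.46 ± 0.0274 with p21 (edgeR adjusted p = 1.52e-07), 0.21 ± 0.0274 with p16 (0.000693) and 0.25 ± 0.0273 in p21 against p16 (0.000122). The peptidase Tpp1 stood at 106, 106 and 95.3 CPM with p21, 95.4, 96.5 and 92.5 CPM with p16 and 85.5, 86.6 and 89.7 CPM with the empty vector. It rose with p21 (0.23 ± 0.0467) and did not pass with p16 (0.12, edgeR adjusted p = 0.123, 0.0396 with the replicate block, 0.0401 without p21 replicate 3 and 0.0261 without the replicate 3 libraries). In p21 against p16 Tpp1 passed with the replicate block (0.0480), without p21 replicate 3 (0.0165) and without the replicate 3 libraries (0.0309). Lgmn, the asparaginyl endopeptidase legumain, stood at 90.2, 85.9 and 85.6 CPM with p21, 86.9, 85.25 and 79.5 CPM with p16 and 82.2, 77.3 and 76.5 CPM with the empty vector. Its small change with p21 (0.15 ± 0.0467) was lost without control replicates 2 or 3 or p21 replicate 1 (highest edgeR adjusted p = 0.0961).

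**Figure D4:**
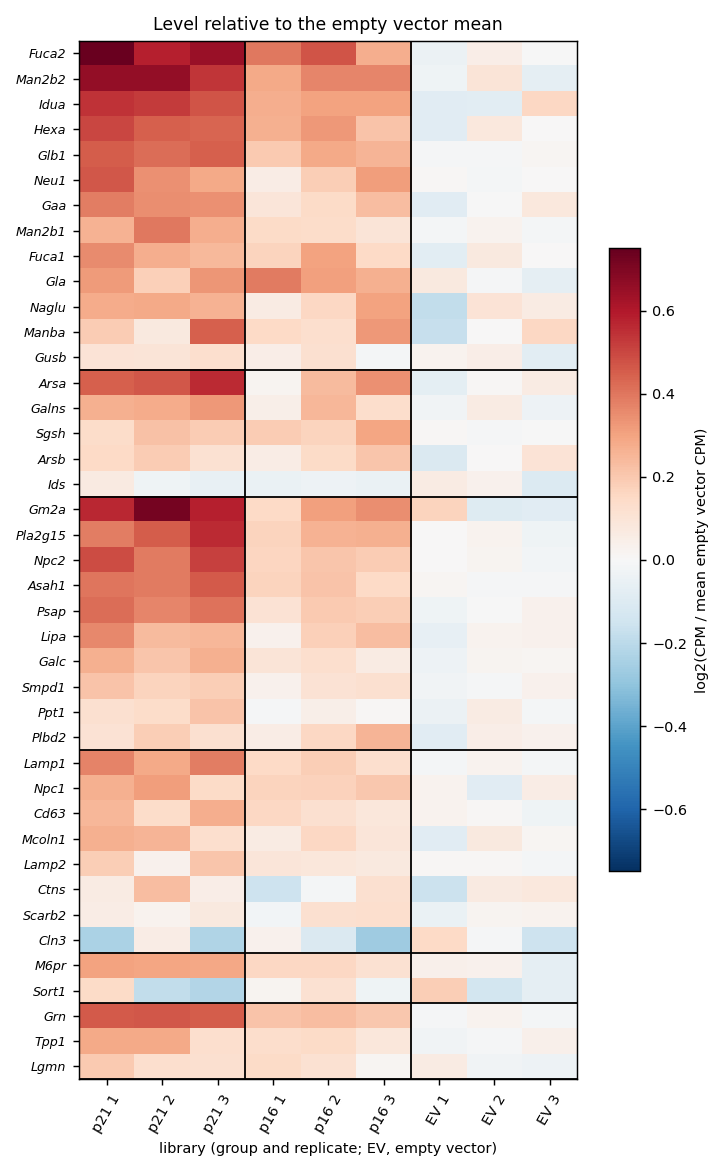
Log2 ratio of the CPM in each library to the mean CPM of the empty vector libraries, for the 41 genes (rows, by class) in 9 libraries (columns). Red is above and blue below the empty vector mean, and the p21 columns are redder than the p16 columns in most rows.

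Across the 41 genes, 12 passed in all 3 comparisons: Glb1, Gaa, Hexa, Man2b2, Fuca2, Asah1, Pla2g15, Psap, Npc2, Lamp1, M6pr and Grn. In 15 genes the libraries followed the order p21, p16, empty vector with no overlap. Over all genes tested, all p16 libraries stood above all empty vector libraries in 16.1%, and all p21 above all p16 libraries in 14.9%. The share of all genes that met both, or that passed in all 3 comparisons, was not counted. A further 5 genes passed with p21 and with p16 and not between them, 15 passed with p21 and not with p16, 0 passed with p16 and not with p21, and 9 passed with neither. Among the 15, the direct comparison of p21 with p16 was called for 4 (Man2b1, Arsa, Gm2a and Galc), and for the other 11 it was not. With the replicate block 3 of those 11 (Cd63, Ppt1 and Tpp1) also passed in p21 against p16. The split into 15 and 9 changed with the block as well. Of the 15, Arsa, Cd63, Gm2a, Lipa, Man2b1 and Tpp1 then passed with p16 too. Of the 9, Arsb, Manba and Plbd2 then passed with p21 and with p16, and Gusb with p21. Summed over all 41 genes, the level was 5662, 5461 and 5649 CPM in the p21 libraries, 4901, 5050 and 4956 CPM in the p16 libraries and 4435, 4516 and 4460 CPM in the empty vector libraries. The groups did not overlap, and the means stood at ratios of 1.251 for p21 over the empty vector and 1.112 for p16 over the empty vector.

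Among the 35 lysosomal genes with a RefSeq start window, 10 (28.6%) held CACGTG, the E-box core, which is its own reverse complement, and all 10 held it within TCACGTG or its reverse complement CACGTGA. Over all 27025 genes with a window, 8.09% held CACGTG and 4.29% held TCACGTG on either strand, and over the 10565 of them that were tested here 11.54% and 6.79% did. The longer palindrome TCACGTGA, which overlaps both, was held by Gla, Cln3 and Mcoln1 (8.6% against 2.09% of the tested genes). With p21, 9 of the 10 genes that held CACGTG rose, with a median log2 fold change of 0.28, and 19 of the 25 that did not, with a median of 0.28. The gene that held it and did not rise was Cln3. A match describes letters in the window and does not show that a factor binds there. The sites of the other 8 genes are shown to let their surroundings be compared, 1 per gene, 5′ to 3′ on the gene's strand in GRCm38.p6, with the match in capitals.
Arsa, chr15:89477413-89477462, minus strand: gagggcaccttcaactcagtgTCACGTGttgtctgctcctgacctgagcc
Cln3, chr7:126583330-126583379, minus strand: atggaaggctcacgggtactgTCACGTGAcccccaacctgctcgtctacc
Gaa, chr11:119267801-119267850, plus strand: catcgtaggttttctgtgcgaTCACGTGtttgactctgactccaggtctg
Gla, chrX:134601172-134601221, minus strand: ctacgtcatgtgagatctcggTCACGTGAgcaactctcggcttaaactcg
Lgmn, chr12:102439114-102439163, minus strand: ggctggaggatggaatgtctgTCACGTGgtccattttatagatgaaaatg
Mcoln1, chr8:3500452-3500501, plus strand: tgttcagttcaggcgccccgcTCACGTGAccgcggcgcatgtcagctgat
Naglu, chr11:101069999-101070048, plus strand: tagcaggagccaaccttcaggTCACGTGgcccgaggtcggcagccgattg
Sgsh, chr11:119355512-119355561, minus strand: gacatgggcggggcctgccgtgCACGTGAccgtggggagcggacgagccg

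Lysosomal genes outside the 41 were counted in the same way. Over all genes tested, 19.8% rose and 20.1% fell with p21, and 5.8% rose and 5.56% fell with p16. In p21 against p16, 6.15% were higher and 6.91% lower. Of 22 other lysosomal enzymes, 12 rose with p21, 6 with p16 and 5 in p21 against p16, and 0 fell. Aga, which cuts asparagine-linked sugars, stood at 53.9, 52.7 and 54.3 CPM with p21, 45.0, 44.8 and 46.6 CPM with p16 and 36.1, 37.4 and 36.4 CPM with the empty vector, and changed by 0.55 ± 0.0396 with p21 and 0.31 ± 0.0396 with p16. Of 22 other lysosomal membrane proteins, 20 were tested: 12 rose and 1 fell with p21, and 5 rose and 0 fell with p16. The p16 count was 1 without control replicate 1 or p16 replicates 2 or 3, 2 without control replicate 2, and 3 without control replicate 3, p21 replicate 1 or p16 replicate 1, and it was 8 with the replicate block. The gene that fell was Tpcn2, which encodes a lysosomal cation channel (-0.25 ± 0.0899, edgeR adjusted p = 0.0418), named after its value was seen, a call lost without any 1 of 6 libraries (highest edgeR adjusted p = 0.158) and without the replicate 3 libraries (0.135). Ostm1, a subunit of the lysosomal chloride transporter, changed by 0.43 ± 0.0396 with p21, Sidt2 by 0.37 ± 0.0476 and Laptm4b by 0.43 ± 0.0550.

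Of 13 genes that tag and sort lysosomal enzymes or activate sulfatases, 2 rose with p21 (5 with the replicate block) and 0 fell, against 19.8% of all genes tested that rose. They were Sumf1, whose product activates all sulfatases, by 0.26 ± 0.0427, and the retromer gene Vps29 by 0.23 ± 0.0411. With p16 1 of 13 rose, Sumf1, a call lost without control replicates 2 or 3 or p16 replicates 2 or 3 (highest edgeR adjusted p = 0.111) and without the replicate 3 libraries (0.117). The retromer gene Vps26a gave 0.14 ± 0.0517 with p21 (edgeR adjusted p = 0.0523, and 0.00925 with the replicate block). Igf2r, the larger mannose 6-phosphate receptor, stood at 391, 399 and 418 CPM with p21 and 358, 364 and 419 CPM with the empty vector and did not pass (edgeR adjusted p = 0.287). It passed with the replicate block (0.0251) and without control replicate 3 (0.0272) or the replicate 3 libraries (0.00994). Gnptab, which encodes the enzyme that begins the mannose 6-phosphate tag, gave 0.11 ± 0.0443 (edgeR adjusted p = 0.0712, and 0.0346 with the replicate block).

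Of the 4 factors of the MiT/TFE family, Tfeb rose with p21, at a low level in all groups. It stood at 4.50, 5.33 and 4.39 CPM with p21, 3.46, 4.26 and 3.93 CPM with p16 and 3.57, 3.77 and 3.225 CPM with the empty vector (0.42 ± 0.126, edgeR adjusted p = 0.0184). Leaving out p21 replicate 2 or control replicate 3 ended this call (highest edgeR adjusted p = 0.0703), and p16 gave 0.14. Tfe3, at 64.7 ± 4.51 CPM with p21 and 64.0 ± 1.06 CPM with the empty vector (SD, n = 3 each), had a 95% interval with p21 of -0.10 to 0.13. Mitf (-0.39 to 0.46) and Tfec (-0.085 to 1.69), both at low levels, did not pass either. Of the 6 regulators of these factors on the list, Flcn, the folliculin gene, changed by 0.27 ± 0.0395 with p21 and Rragc, a Rag GTPase gene, by 0.22 ± 0.0398. In all, 5 of the 10 genes rose with p21 and 0 with p16 in the edgeR test, where 19.8% and 5.8% of all genes tested rose. The p21 count was 2 without control replicate 3 or p21 replicate 2 and 3 without p21 replicate 1. With p16, 2 rose with the replicate block.

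In sum, markers of macrophages and other leukocytes, cells rich in lysosomes, were also higher with p21 than with the empty vector. The 18 markers, all above 0 in some library, summed to 47.8 to 65.3 CPM in the p21 libraries, 36.75 to 66.3 CPM in the p16 libraries and 28.05 to 44.4 CPM in the empty vector libraries. Much of the sum came from Lyz2, with a mean of 26.5 CPM of 57.3 CPM with p21 and 15.5 CPM of 35.05 CPM with the empty vector. With p21 7 of 17 tested markers rose and 0 fell, where 19.8% of all genes tested rose and 20.1% fell. The count of 7 ran from 2 to 10 when 1 library was left out: 2 without p21 replicate 3, 3 without p21 replicate 1 or control replicate 2, and 4 without control replicate 1. With the replicate block it was 13. With p16 0 of 17 passed in the edgeR test, where 5.8% of all genes tested rose, and 6 did with the replicate block. Both shares are of the fit without the block, so the counts with the block cannot be set against them. The pan-leukocyte gene Ptprc stood at 0.499 to 0.909 CPM in the p21 libraries, against 0.257 to 0.451 CPM in the empty vector libraries. Cd68, itself a lysosomal membrane protein of macrophages, gave 0.15 with p21 (edgeR adjusted p = 0.410), and Cd14 gave -0.018 (edgeR adjusted p = 0.940). The part of such cells in the results above was not tested. Within the p16 group the marker sum was 36.75, 39.9 and 66.3 CPM in replicates 1 to 3. The sum of the 41 lysosomal genes was 4901, 5050 and 4956 CPM there. Within the p21 group the marker sum was 58.9, 47.8 and 65.25 CPM and the lysosomal sum 5662, 5461 and 5649 CPM. Within the empty vector group they were 28.05, 32.7 and 44.4 CPM and 4435, 4516 and 4460 CPM. Whether these sums vary together was not tested.

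**Figure D5:**
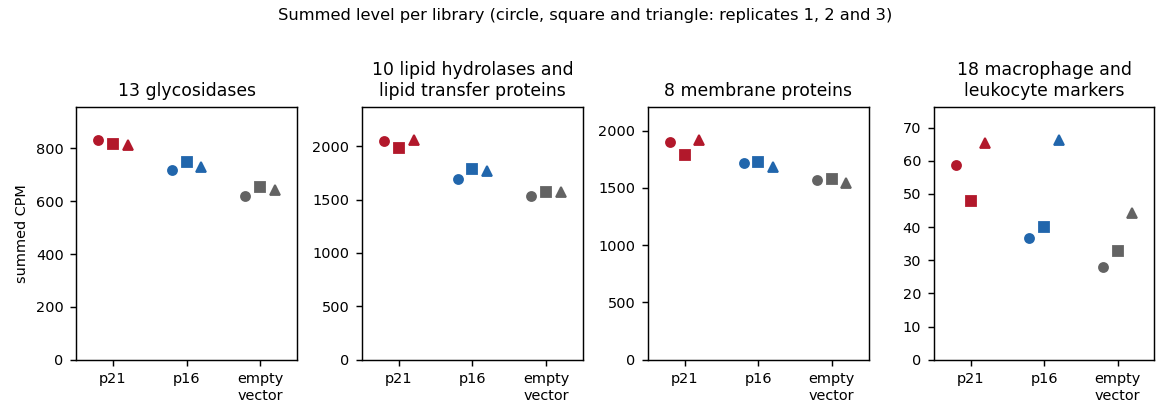
Summed CPM per library of 13 glycosidases, 10 lipid hydrolases and lipid transfer proteins, 8 membrane proteins and 18 macrophage and leukocyte markers, for p21 (red), p16 (blue) and empty vector (grey); circle, square and triangle mark replicates 1, 2 and 3. The lysosomal sums do not overlap between the 3 groups, whereas the marker sums of p16 overlap those of both others and are highest in replicate 3 of each group.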

How the data were processed

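The authors deposited 1 table of raw counts by gene for the 9 RNA-seq libraries. The submitters' processing notes name TopHat2 2.0.14, Bowtie2 2.2.6, featureCounts 1.4.6 and the build mm10. The gene annotation and strand setting are not given in the sources used here.

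The 24062 genes were filtered with edgeR 4.0.16 (filterByExpr, minimum count 10, minimum total 15), which left 14223, and scaled by TMM. A quasi-likelihood model over all 9 libraries and 3 groups, with 6 residual degrees of freedom, gave each comparison, and p-values were adjusted by Benjamini-Hochberg over the 14223 genes and called at 0.05. Standard errors come from the fold change and its F statistic. CPM uses TMM-scaled totals, and RPKM divides it by the summed exon length in GENCODE M21. R 4.3.3 and Python 3.11.15 were used, and the fit was tested on simulated data. Library totals of 44455730 to 63152239 counts set the precision, and the biological coefficient of variation was 7.3%. No 2 libraries of a group agreed within sampling noise (chi-square per degree of freedom 5.26 to 16.8).

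Replicate numbers are shared by the groups in the labels. Deviations from the group means correlated at 0.126 to 0.361 between same-numbered libraries (9 pairs) and at -0.246 to 0.106 between others (18 pairs), so the numbers pair the samples, and a fit with the replicate block is given where it changes the call of a lysosomal gene named with values. Other alternatives were DESeq2 1.42.0 (its size factors and its Wald test), library totals alone, no filter, the 2 compared groups alone, and leaving out libraries.

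Genes named with per-library values were Glb1, Lamp1, the 3 of each class with the smallest adjusted p with p21, all that did not pass with p21, and those called in p21 against p16 but not with p16. Some others are named after their values were seen. The members and lists were chosen with earlier results of these data known. Promoter windows are RefSeq's (GRCm38.p6). Glmp and Adgre1 were counted under older symbols. Some genes of the other lysosomal enzyme list that this rule would name are not reported here.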

Additional observations from a re-analysis of the deposited data

How the results depend on the processing

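With the replicate number as a block, p16 against the empty vector called 3044 genes (1616 without it) and 26 of the 41 lysosomal genes (17 without it), and p21 against p16 called 3214 genes (1858 without it). Every lysosomal call of the fit without the block was also made with it. Leaving out 1 library at a time gave 4617 to 5659 genes for p21 against the empty vector, 759 to 1894 for p16 against the empty vector and 1074 to 1810 for p21 against p16. The lysosomal genes called higher then numbered 30 to 34, 10 to 19 and 11 to 18. Of the calls, 27 of 32 with p21, 8 of 17 with p16 and 9 of 16 in p21 against p16 held whichever library was left out. No lysosomal gene that was called changed sign under any alternative run. Without the replicate 3 libraries the counts were 31, 16 and 17. Library totals alone gave 28, 13 and 15, and moved the share of called genes that were higher to 36.8% (49.6% with TMM) for p21, 33.3% (51.1%) for p16 and 37.0% (47.1%) for p21 against p16. The DESeq2 Wald test gave 35, 22 and 16. The cause of these differences was not tested.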
